A study of Mus musculus with 6 samples.

Results

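The immediate early genes Egr1, Egr2, Egr3, Nr4a1, Nr4a2, Nr4a3, Ier2, Ier3, Dusp1 and Zfp36 were followed across mouse bone marrow cells. They were taken by gene symbol from a list that was drawn up with earlier results of these data known, and 10 of 10 were measured among the 18193 genes that a single-gene probe set named on the array. Values are given as the authors deposited them, on the log2 scale of RMA, so 1 log2 unit is a 2-fold difference, and where a gene had several probe sets, the brightest on average represented it. A gene was called where limma's p-value, adjusted over all genes, was under 0.05.

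The MN1VP16 group (n = 2 arrays) held GFP-positive marrow cells that carried the retroviral vector pSF91-MN1VP16-IRES-GFP. The MN1 group (n = 2) held the same kind of cells with pSF91-MN1-IRES-GFP. MN1 is a cofactor of transcription that drives myeloid leukaemia in mice when overexpressed, and VP16 is the name of a herpesvirus activator. The C57BL/6J donors had received 150 mg/kg 5-fluorouracil over 4 days, and their marrow was kept for 48 hours in human IL-6, mouse IL-3 and mouse stem cell factor before transduction. Virus came from cocultured producer cells. The cells were transplanted into lethally irradiated syngeneic recipients and sorted 4 weeks later, so the GFP gate alone defines these populations. The Gr1Mac group (n = 2) held Gr1+/CD11b+ marrow, a surface profile of granulocytes and monocytes. The labels give the Gr1Mac samples the same donor protocol and do not say whether they came from transplanted mice. Nor do they say whether a group's arrays stand for separate mice, and the p-values therefore measure a spread between arrays that may be technical.

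Immediate early genes are transcribed within minutes of a growth factor, cytokine or stress signal, without new protein synthesis. MAP kinases and calcium or cyclic AMP signals activate factors already bound at their promoters, such as SRF with its ternary complex partners and CREB, and the messages then decay fast. The Egr proteins are zinc finger transcription factors and the Nr4a proteins are orphan nuclear receptors. Dusp1 and Zfp36 act as brakes, the first by inactivating MAP kinases and the second by promoting decay of mRNAs with AU-rich elements. In mice, Egr1 favours macrophage differentiation, Nr4a1 is needed for patrolling monocytes, and combined loss of Nr4a1 and Nr4a3 leads to acute myeloid leukaemia.

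Some facts of the arrays bear on every result below. The median value of an array lay between 5.36 and 5.43 log2 units. No detection calls were used here; as a guide to background, Xist on the arrays that were high in Y-linked genes read up to 5.84 log2 units, and genes of the Y chromosome on the remaining arrays up to 4.05. Y-linked genes were high in MN1VP16 (2 arrays) and on Gr1Mac array 2, and Xist was high in MN1 (2 arrays) and on Gr1Mac array 1, so the sex of the cells and the construct cannot be told apart between MN1VP16 and MN1. Of 64 control features, 14 lay at least 1 log2 unit higher on both MN1 arrays and MN1VP16 array 1 than on the other 3 arrays. Their mean was 11.56 and 9.47 log2 units on MN1VP16 arrays 1 and 2, 11.63 and 11.28 in MN1, and 10.01 and 9.95 in Gr1Mac. The control rows named for Gapdh and beta-actin read between 3.12 and 3.77 log2 units on all arrays, whereas an ordinary Actb probe set read 13.94 to 14.79, so the names of the control rows could not be relied on and a 5' to 3' check of RNA quality was void. The single-gene probe set of Mn1 read 4.92 and 4.00 log2 units in MN1VP16, 3.92 and 4.51 in MN1 and 3.63 and 4.21 in Gr1Mac; the labels do not give the ends of the insert, so these readings are no check on which cells carried it. With bulk arrays, fewer cells of a type and less RNA per cell cannot be told apart.

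The members followed 3 courses. Dusp1, Zfp36, Nr4a1 and Ier2 were low on both MN1 arrays and high on both Gr1Mac arrays, with MN1VP16 between or near Gr1Mac. Egr1, Egr2 and Ier3 were highest on MN1VP16 array 2. Egr3, Nr4a2 and Nr4a3 hardly moved in the probe sets that represented them, although other probe sets of Egr3 and Nr4a2 did.

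**Figure D1:**
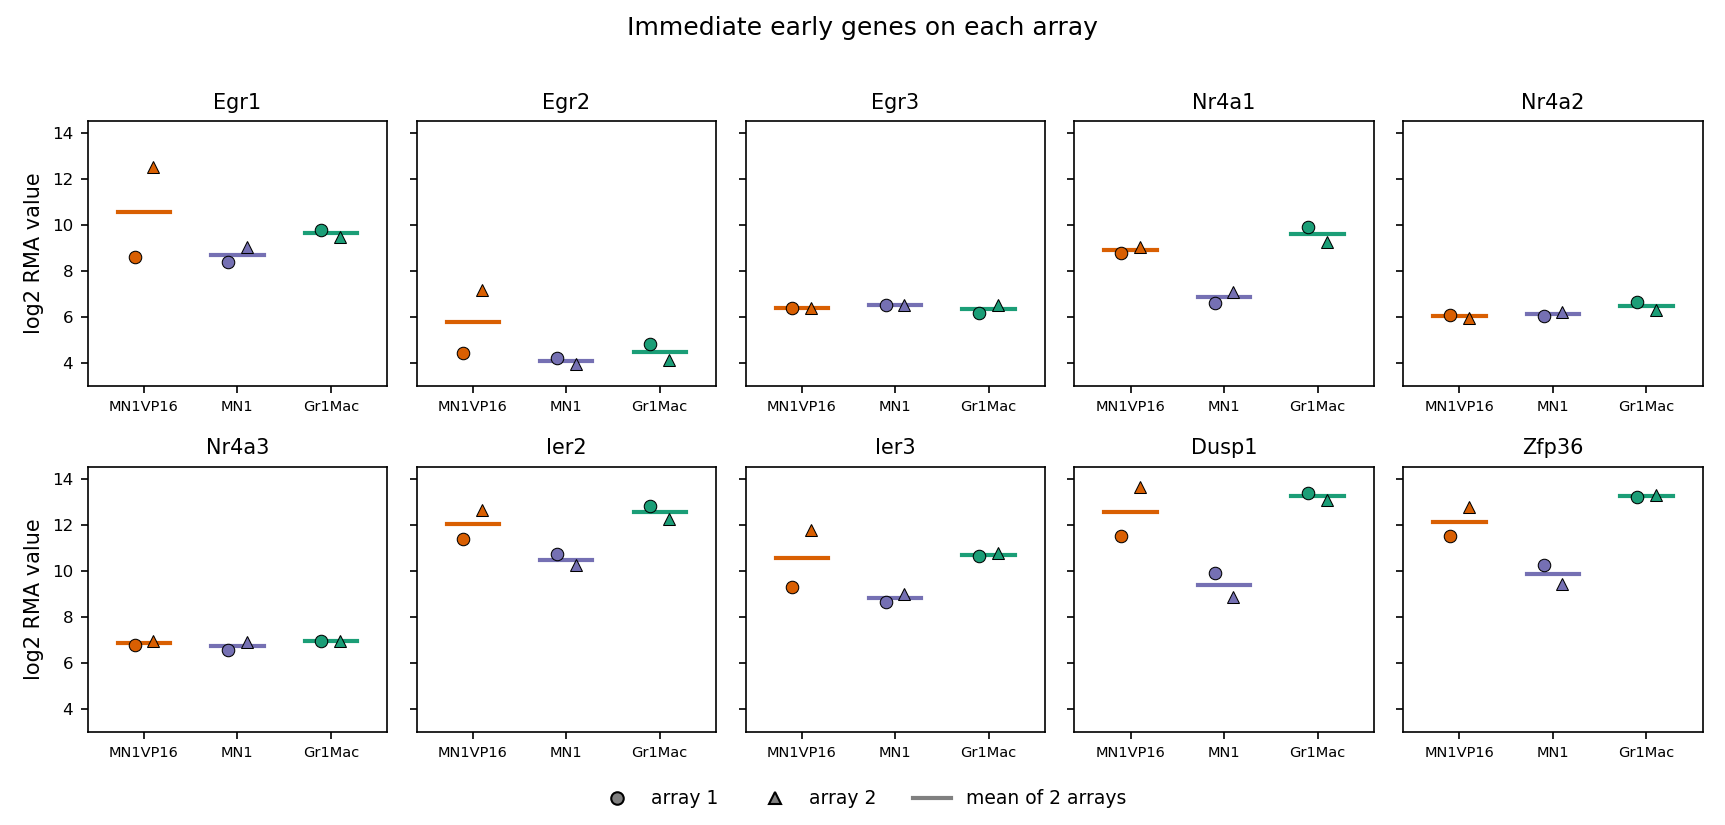
Log2 RMA value (vertical axis) of the 10 immediate early genes on each array of the MN1VP16, MN1 and Gr1Mac groups (horizontal axis); circles are array 1, triangles array 2, and bars the mean of 2 arrays. Dusp1, Zfp36, Nr4a1 and Ier2 are lowest on both MN1 arrays, and Egr1, Egr2 and Ier3 stand at 12.51, 7.16 and 11.76 on MN1VP16 array 2, above all other arrays.

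Cells carrying MN1 had lower mRNA levels of the signalling brakes Dusp1 and Zfp36, of the nuclear receptor Nr4a1 and of Ier2, a nuclear protein of the early response, than Gr1-positive, CD11b-positive marrow cells. Limma called these 4 of 10 members lower in MN1 than in Gr1Mac and 0 higher, where 29.3% of all 18193 genes were called either way, 12.0% lower and 17.3% higher. Before adjustment, 5 members had a p under 0.05, against 39.8% of all genes. The median difference of the 10 members was -1.40 log2 units, against -0.06 over all genes. The arrays of the groups did not overlap, with MN1 lower, for 8 members, where 35.8% of all genes had this order, and with MN1 higher for 0 (30.9% of all genes).

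Dusp1 read 9.87 and 8.84 log2 units in MN1, against 13.38 and 13.06 in Gr1Mac. Both MN1 arrays lay far below both Gr1Mac arrays, and the gap of 1.04 log2 units between the MN1 arrays was small beside it. The difference was -3.87 ± 0.70 log2 units (SE), that is 14.6-fold lower in MN1 (95% interval 4.45 to 47.7; limma adjusted p = 0.00980). Dusp1 lost its call without MN1 array 2 (adjusted p = 0.0651), without Gr1Mac array 1 (0.0610) and without Gr1Mac array 2 (0.0558).

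Zfp36, which encodes tristetraprolin, read 10.24 and 9.43 log2 units in MN1, against 13.21 and 13.30 in Gr1Mac. The Gr1Mac arrays lay within 0.09 of each other. Zfp36 was 10.7-fold lower in MN1 (95% interval 4.99 to 22.9), a difference of -3.42 ± 0.45 log2 units (SE; limma adjusted p = 0.00379).

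Nr4a1 read 6.59 and 7.10 log2 units in MN1, against 9.93 and 9.26 in Gr1Mac. The groups were apart by more than 2 log2 units at their nearest arrays. It was 6.72-fold lower in MN1, a difference of -2.75 ± 0.29 log2 units (SE; 95% interval -3.45 to -2.04; limma adjusted p = 0.00217). The call was kept in 15 of 15 alternatives, which were not all separate checks. Leaving out either MN1VP16 array gave the same fit as using only the groups compared. The sex pattern as a block gave the same fit as leaving out Gr1Mac array 2.

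Ier2 read 10.72 and 10.23 log2 units in MN1, against 12.81 and 12.26 in Gr1Mac, again without overlap. Its difference was -2.06 ± 0.44 log2 units (SE), 4.17-fold lower in MN1 (95% interval 1.99 to 8.75; limma adjusted p = 0.0166). The call was lost without MN1 array 2 (adjusted p = 0.103), without Gr1Mac array 1 (0.0902) and without Gr1Mac array 2 (0.0542).

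The promoters of 3 of these called genes are shown because the genes were low together in MN1 and because the letters of signal-responsive motifs stand close to their start sites. Dusp1 and Zfp36 had the largest called differences; Nr4a1 was added after its values were seen. Each run gives the 250 bases before the RefSeq start site (GRCm38.p6), 5' to 3', and capitals mark matches on either strand to the CArG box that SRF binds, the CREB core TGACG, the ETS core CCGGAA or the Egr site GCGNGGGCG.
Dusp1 promoter, chr17:26508473-26508722, minus strand: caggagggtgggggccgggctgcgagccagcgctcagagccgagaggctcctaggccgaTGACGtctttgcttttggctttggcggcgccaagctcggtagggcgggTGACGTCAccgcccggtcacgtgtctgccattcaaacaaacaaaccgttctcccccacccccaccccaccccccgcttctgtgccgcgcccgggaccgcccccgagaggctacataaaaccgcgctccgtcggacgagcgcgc
Zfp36 promoter, chr7:28379229-28379478, minus strand: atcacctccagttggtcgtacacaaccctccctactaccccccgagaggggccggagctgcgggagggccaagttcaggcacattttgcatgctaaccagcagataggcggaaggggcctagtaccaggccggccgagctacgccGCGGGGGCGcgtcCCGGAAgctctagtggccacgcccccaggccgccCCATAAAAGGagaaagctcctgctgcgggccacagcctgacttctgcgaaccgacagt
Nr4a1 promoter, chr15:101266596-101266845, plus strand: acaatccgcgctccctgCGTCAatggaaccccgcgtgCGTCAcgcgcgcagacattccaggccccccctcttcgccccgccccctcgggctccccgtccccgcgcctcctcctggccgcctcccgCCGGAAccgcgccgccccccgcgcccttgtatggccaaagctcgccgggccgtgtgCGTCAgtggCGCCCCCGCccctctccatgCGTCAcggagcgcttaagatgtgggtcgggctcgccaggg
The Dusp1 window held the whole palindromic cyclic AMP response element TGACGTCA from base -143 to -136, which contains the CREB core on both strands, and a further core at -191 to -187. The Zfp36 window held a CArG box at -58 to -49, an ETS core at -92 to -87 and an Egr site at -105 to -97. The Nr4a1 window held 4 CREB cores, an ETS core and an Egr site, of which the CREB cores and the Egr site (at -60 to -52) were read on the opposite strand.

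Promoter entries were found for 7 of the 10 members, namely these genes with Egr2, Ier3, Nr4a2 and Nr4a3. For Egr2, which had 5 entries, the one with the most matches was taken, so its matches had more chances than those of a gene with 1 entry. Of the 7, 2 held a CArG box (Zfp36 and Egr2), 4 the CREB core, 3 the ETS core and 3 the Egr site, while the Ier3 window held none. Among all 32851 promoter entries of the same length, 1.47% held a CArG box, 17.8% the CREB core, 1.55% TGACGTCA, 12% the ETS core and 4.7% the Egr site. Counted per gene, with a match in any entry, the shares were 1.62% for the CArG box, 19.8% for the CREB core, 1.77% for TGACGTCA, 13.6% for the ETS core and 5.33% for the Egr site. Nr4a2 and Nr4a3, which were not called on the probe sets that represented them, held 4 CREB cores each, as many as Nr4a1.

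The remaining members were not called between MN1 and Gr1Mac. Ier3, a stress-inducible regulator of cell survival, read 8.65 and 8.98 log2 units in MN1, against 10.63 and 10.75 in Gr1Mac. The arrays did not overlap, and the difference of -1.87 ± 0.73 log2 units (SE) had a limma adjusted p of 0.110. The shared spread included the wide MN1VP16 arrays of this gene: fitted on the MN1 and Gr1Mac arrays only, the same difference had an adjusted p of 0.00329.

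Egr1 read 8.38 and 9.03 log2 units in MN1, against 9.77 and 9.49 in Gr1Mac, and its difference of -0.92 ± 1.15 (SE) was not called (limma adjusted p = 0.610). Egr2 read 4.20 and 3.95 in MN1, against 4.81 and 4.14 in Gr1Mac. Those Egr2 arrays overlapped, and all 4 lay under the background guide of 5.84.

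In a fit with the control-feature split as a block, MN1 minus Gr1Mac changed for these genes. Only Nr4a1 was still called lower (adjusted p = 0.04996), while Egr1 turned to 2.97 log2 units higher (adjusted p = 0.0307), and Egr2, with readings under the background guide on all arrays but MN1VP16 array 2, was called higher too (0.0466). The difference was -2.17 log2 units for Zfp36 (adjusted p = 0.0635), -1.75 for Dusp1 (0.164) and -0.83 for Ier2 (0.376) in that fit, so these calls were lost. By construction, it adds the gap of MN1 to MN1VP16 array 1 to the gap of MN1VP16 array 2 to Gr1Mac, so it rests on the unlike MN1VP16 arrays. With the sex pattern as a block, Dusp1 and Ier2 were not called, in what was the same fit as leaving out Gr1Mac array 2. Among the arrays high in Xist alone, the MN1 mean lay below Gr1Mac array 1 by a difference of -4.02 log2 units for Dusp1, -3.37 for Zfp36, -3.08 for Nr4a1 and -2.34 for Ier2, values of 2 arrays against 1 with no test of their own. The part of the control features and of sex in these differences was not tested further.

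The comparison of MN1VP16 with MN1 pointed upwards for the same 4 genes, yet 1 of 10 members was called. Nr4a1 read 8.79 and 9.03 log2 units in MN1VP16, against 6.59 and 7.10 in MN1. Both MN1VP16 arrays stood well above both MN1 arrays, and the difference of 2.06 ± 0.29 log2 units (SE) made Nr4a1 4.17-fold higher in MN1VP16 (95% interval 2.55 to 6.81; limma adjusted p = 0.0286). Over all genes, 3.85% were called either way, 1.15% higher and 2.70% lower. Before adjustment, 4 members had a p under 0.05, all higher, against 22.5% of all genes. The call was lost when MN1 array 1, MN1 array 2, MN1VP16 array 1 or MN1VP16 array 2 was left out, with values between 1.80 and 2.32 log2 units. It was also lost with the sex pattern as a block (limma adjusted p = 0.225). The control features as a block gave the same fit as leaving out MN1VP16 array 2.

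Dusp1 read 11.49 and 13.61 log2 units in MN1VP16, against 9.87 and 8.84 in MN1. Its arrays did not overlap, but the MN1VP16 arrays were 2.12 log2 units apart. The difference of 3.20 ± 0.70 (SE) was not called (limma adjusted p = 0.0647).

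Zfp36 read 11.51 and 12.75 log2 units in MN1VP16, against 10.24 and 9.43 in MN1, a difference of 2.30 ± 0.45 (SE; limma adjusted p = 0.0526). Ier2 read 11.39 and 12.62 in MN1VP16, against 10.72 and 10.23 in MN1, a difference of 1.53 ± 0.44 (SE; limma adjusted p = 0.113). Ier3 read 9.31 and 11.76 in MN1VP16, against 8.65 and 8.98 in MN1, a difference of 1.71 ± 0.73 (SE; limma adjusted p = 0.237). For each of these genes both MN1VP16 arrays were higher, and array 2 was the farther one. In all, the arrays did not overlap, with MN1VP16 higher, for 6 members (30.5% of all genes), and with MN1VP16 lower for 1, Egr3 (29.2% of all genes). Dusp1 and Zfp36 were called higher without the dimmest 40% of genes (adjusted p = 0.0465 and 0.0414) and with a variance trend (0.0466 and 0.0380).

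On the side of the control-feature split that holds MN1VP16 array 1 and both MN1 arrays, the array exceeded the MN1 mean by 2.14 log2 units for Dusp1, 1.94 for Nr4a1, 1.67 for Zfp36, 0.91 for Ier2 and 0.49 for Ier3. It differed by -0.09 for Egr1. Dusp1, Nr4a1 and Zfp36 were thus more than 2-fold higher on MN1VP16 array 1 too. With 1 array against 2 these values carry no test of their own.

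Between MN1VP16 and Gr1Mac, limma called 0 of 10 members, where 5.77% of all genes were called either way, 2.11% lower and 3.66% higher. Before adjustment, Zfp36 and Nr4a2 had a p under 0.05, both lower in MN1VP16 (2 of 10 members, against 23.7% of all genes). The arrays did not overlap, with MN1VP16 lower, for 4 members (25.2% of all genes), and with MN1VP16 higher for 0 (24.8% of all genes). Zfp36 read 11.51 and 12.75 log2 units in MN1VP16, against 13.21 and 13.30 in Gr1Mac, and its difference of -1.12 ± 0.45 (SE) had a limma adjusted p of 0.203. Nr4a1 read 8.79 and 9.03 in MN1VP16, against 9.93 and 9.26 in Gr1Mac. Its difference of -0.69 ± 0.29 (SE) was not called (limma adjusted p = 0.222), with a 95% interval from -1.39 to 0.02. Among the arrays high in Y-linked genes alone, the MN1VP16 mean differed from Gr1Mac array 2 by -1.17 log2 units for Zfp36, -0.51 for Dusp1, -0.36 for Nr4a1 and -0.26 for Ier2. The 95% intervals over all arrays of Dusp1 (-2.38 to 1.04 log2 units) and Ier2 (-1.60 to 0.53) leave room for differences of more than 2-fold. The order of the group means was thus MN1, MN1VP16, Gr1Mac for Dusp1, Zfp36, Nr4a1 and Ier2; in that order, MN1VP16 and Gr1Mac were not told apart for any of them, and MN1 and MN1VP16 were told apart for Nr4a1. These 3 comparisons share their arrays in pairs, so they are not independent of each other.

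**Figure D2:**
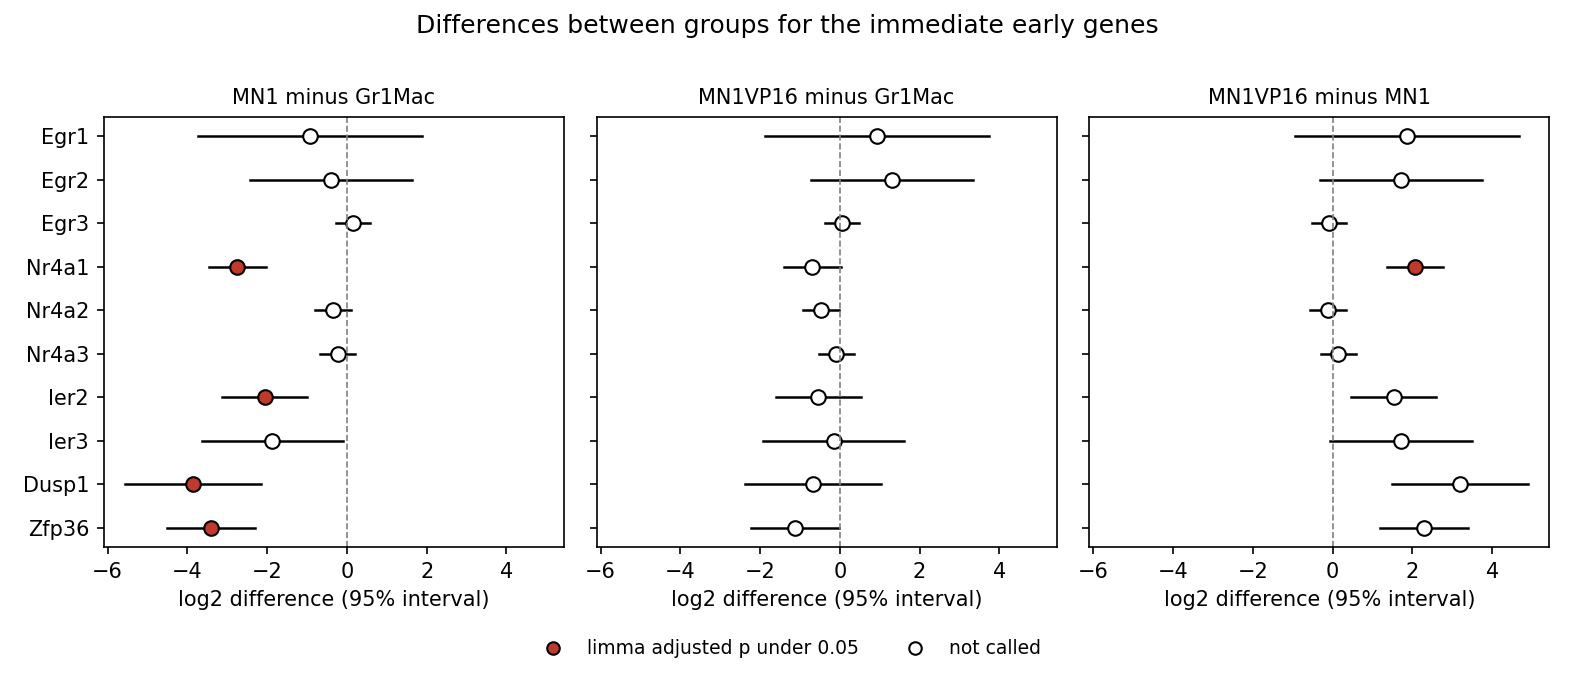
Log2 difference (horizontal axis) of each immediate early gene in 3 panels, MN1 minus Gr1Mac first, then MN1VP16 minus Gr1Mac, then MN1VP16 minus MN1, with 95% intervals from limma; filled points have an adjusted p under 0.05. The 4 filled points of MN1 minus Gr1Mac lie between -3.87 and -2.06, and Nr4a1 at 2.06 is the filled point of MN1VP16 minus MN1.

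The MN1VP16 arrays differed from each other in these genes more than in most. Array 2 was higher than array 1 by any amount in 8 of 10 members, against 47.8% of all genes. It was at least 2-fold higher in 6 members, whereas 1.80% of all genes were at least 2-fold higher and 3.17% at least 2-fold lower on array 2. The median gap of the members was 1.24 log2 units, against -0.01 over all genes. The gap within a group was at most 1.04 log2 units in MN1 (Dusp1) and at most 0.67 in Gr1Mac (Egr2) for any member. These are values of 1 array against another and have no test.

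Egr1 read 8.62 log2 units on MN1VP16 array 1 and 12.51 on array 2, a gap of 3.90 or 14.9-fold. On array 1 it lay within the range of the MN1 arrays, and on array 2 it was 2.75 log2 units above the highest of the other 5 arrays. Of 18193 genes, 7 had a larger rise from array 1 to array 2. Among them were Fosb with 4.94 log2 units, the heat shock genes Hspa1b with 4.78 and Hspa1a with 4.42, and the chemokine Cxcl2 with 3.91. Fosb (4.74) and Hspa1a (5.55) read under the background guide on array 1, so the start of their rise can be background.

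Egr2, a relative of Egr1 that also acts in macrophages, read 4.41 log2 units on MN1VP16 array 1 and 7.16 on array 2. The value on array 1 was close to those of the MN1 and Gr1Mac arrays, which lay between 3.95 and 4.81. Its other probe set, 1427682_a_at, gave the same picture with 3.50 on array 1, 5.60 on array 2 and 3.14 to 3.74 on the remaining arrays. Since the lower readings can be background, no fold is given.

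Ier3 read 9.31 log2 units on MN1VP16 array 1 and 11.76 on array 2, a gap of 2.45. Together with Egr1 and Egr2 it was at least 2-fold above each of the other 5 arrays on array 2, a pattern shown by 0.544% of all genes. The gap was 2.12 for Dusp1, 1.24 for Zfp36 and 1.23 for Ier2, but for these array 2 lay close to the Gr1Mac arrays. Nr4a1 was the member of the first course whose MN1VP16 arrays read alike, with a gap of 0.24.

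Egr1 was called in none of the 3 comparisons. It averaged 10.57 ± 2.75 log2 units in MN1VP16, 8.70 ± 0.46 in MN1 and 9.63 ± 0.20 in Gr1Mac (SD, n = 2 each); MN1VP16 minus MN1 was 1.86 ± 1.15 (SE; limma adjusted p = 0.416). Without MN1VP16 array 1, leaving array 2 alone in its group, 6 of 10 members were called higher than in MN1, where 498 of all 18193 genes were called either way, Egr1 by 3.81 log2 units (adjusted p = 0.00936) and Ier3 by 2.94 (0.00835). Without MN1VP16 array 2, 0 of 10 members and 203 of all genes were called. On the side of the control features that array 2 shares with both Gr1Mac arrays, it exceeded the Gr1Mac mean by 2.89 log2 units for Egr1 and 1.07 for Ier3, and differed by 0.39 for Dusp1, 0.08 for Ier2, -0.50 for Zfp36 and -0.57 for Nr4a1.

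**Figure D3:**
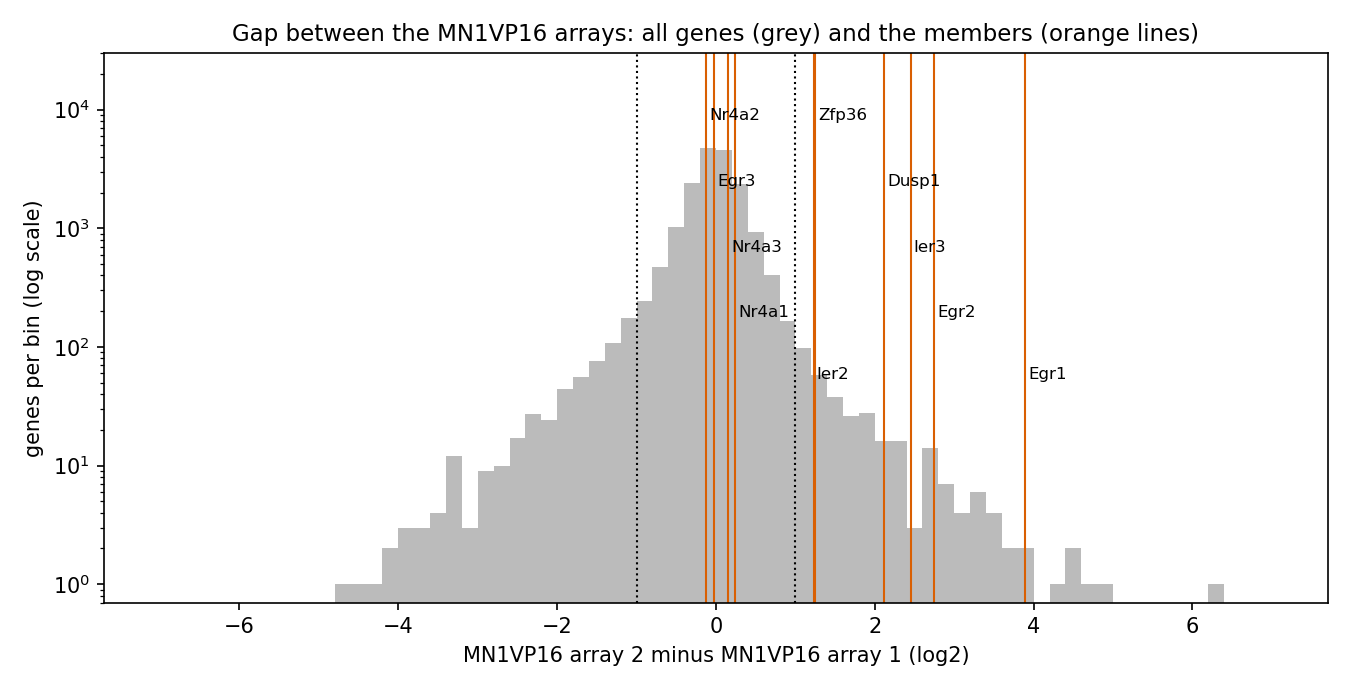
Number of genes (vertical axis, log scale) by their difference between MN1VP16 array 2 and MN1VP16 array 1 (horizontal axis, log2 units) in bars for all 18193 genes, with an orange line for each immediate early gene and dotted lines at 2-fold. The lines of Egr1 at 3.90, Ier3 at 2.45 and Dusp1 at 2.12 stand in the sparse right tail with that of Egr2, whose array 1 reading can be background, and those of Nr4a1, Nr4a2, Nr4a3 and Egr3 in the centre.

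Egr3, Nr4a2 and Nr4a3 had several probe sets, which did not all tell the same story. The probe set that represented Egr3, 1421486_at, read 6.17 to 6.51 log2 units on all 6 arrays and differed by at most 0.16 between group means. The other, 1436329_at, read 3.11 and 6.52 on MN1VP16 arrays 1 and 2, 3.36 and 3.01 in MN1, and 3.39 and 3.31 in Gr1Mac. It was thus higher on array 2 than on array 1, in the same direction as Egr1 and Egr2, and its other readings can be background. Neither probe set was called in any of the 3 comparisons, with p-values adjusted over all single-gene probe sets.

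Nr4a3, the relative of Nr4a1 also called NOR-1, read 6.78 and 6.93 log2 units in MN1VP16, 6.55 and 6.89 in MN1, and 6.95 and 6.95 in Gr1Mac. Its 3 probe sets showed no called difference. Nr4a2, also called Nurr1, read 6.08 and 5.96 in MN1VP16, 6.05 and 6.22 in MN1, and 6.67 and 6.31 in Gr1Mac on the probe set that represented it, 1433422_at. No comparison called that probe set, and MN1VP16 minus Gr1Mac was -0.47 ± 0.19 log2 units (SE; limma adjusted p = 0.204).

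Of the 6 Nr4a2 probe sets, 2 were called, both in MN1 minus Gr1Mac and both higher in MN1. Probe set 1455034_at read 4.19 and 6.17 log2 units in MN1VP16, 5.70 and 6.27 in MN1, and 3.93 and 3.21 in Gr1Mac. Its MN1 minus Gr1Mac difference was 2.42 (limma adjusted p = 0.0358 over all single-gene probe sets). Probe set 1447863_s_at read 5.42 and 6.26 in MN1, against 4.45 and 4.72 in Gr1Mac (difference 1.26, adjusted p = 0.0449). With the median over its probe sets, Nr4a2 was 1.03 log2 units higher in MN1 (adjusted p = 0.0491), the opposite direction to the -0.35 of the brightest probe set, so the direction of Nr4a2 depends on the probe set. In both called probe sets the direction was opposite to that of Nr4a1, and the Gr1Mac readings lay under the background guide.

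**Figure D4:**
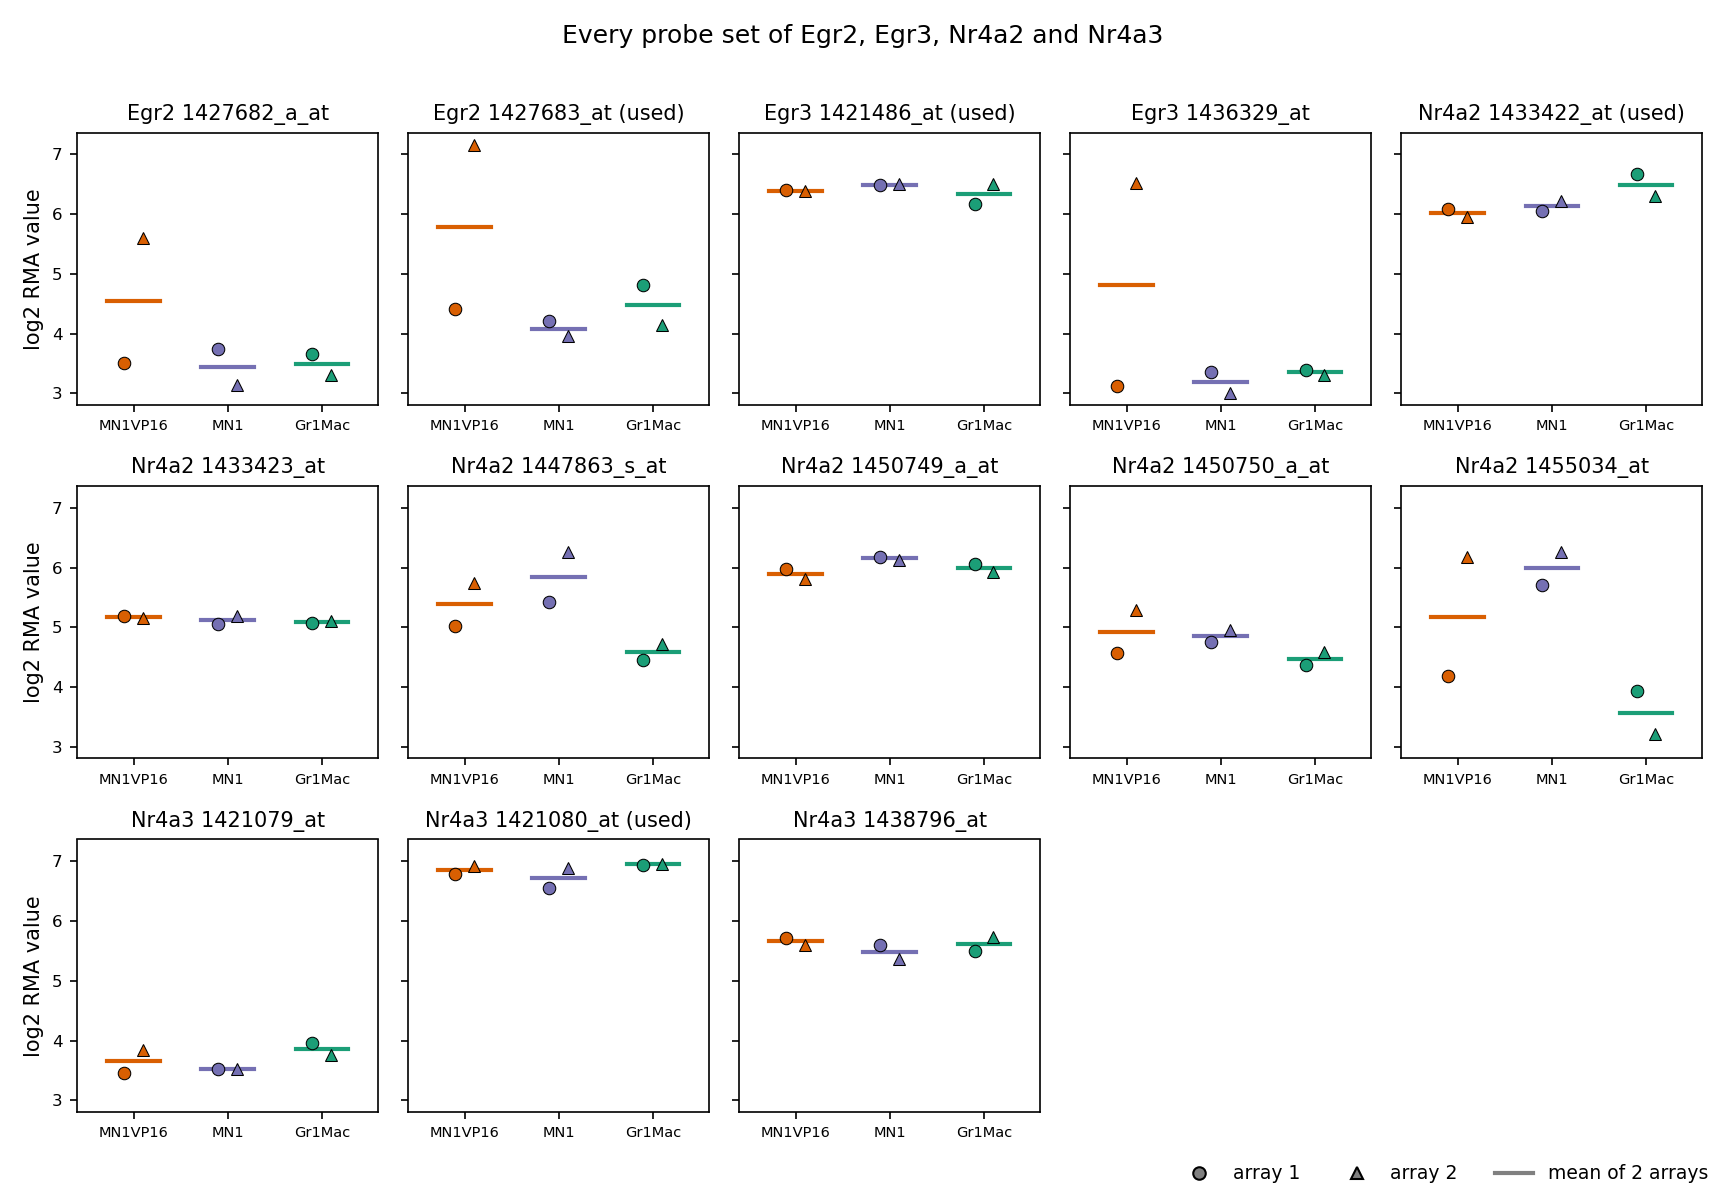
Log2 RMA value (vertical axis) of every probe set of Egr2, Egr3, Nr4a2 and Nr4a3 on each array of the MN1VP16, MN1 and Gr1Mac groups; circles are array 1, triangles array 2, bars the mean of 2 arrays, and the probe set that represented a gene is marked as used. Egr3 1436329_at and both Egr2 probe sets are high on MN1VP16 array 2 alone, at 6.52, 5.60 and 7.16, and Nr4a2 1455034_at is lowest in Gr1Mac.

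Other lists of the immediate early response also held genes that were low in MN1. The AP-1 factors, dimers of Fos and Jun proteins, were called lower in MN1 than in Gr1Mac for 5 of 10 measured genes and higher for 0 (12.0% and 17.3% of all genes), with a median difference of -1.60 log2 units against -0.06 over all genes. Fos read 8.71 and 8.82 in MN1, against 14.06 and 14.13 in Gr1Mac, a difference of -5.33 ± 0.34 log2 units (SE; limma adjusted p = 0.00107). The difference of Junb was -3.68 log2 units (limma adjusted p = 0.00125). In MN1VP16 minus MN1, 4 of the 10 were called higher (Fos, Fosl2, Jun and Junb; 1.15% of all genes), Fos by 4.70 log2 units (adjusted p = 0.00662) and Jun by 3.51 (0.0468). In MN1VP16 minus Gr1Mac 1 of the 10 was called, against 5.77% of all genes, namely Junb by -1.55 log2 units (limma adjusted p = 0.0366). Fosb, which read 9.68 on MN1VP16 array 2 and 4.38 to 5.41 on the other 5 arrays, was also highest on that array. Its lower readings can be background.

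Of 32 measured other immediate early genes, 19 were called lower in MN1 than in Gr1Mac and 1 higher, against 12.0% and 17.3% of all genes (median -1.63 log2 units). The most negative differences were those of Klf4 and Socs3, whose MN1 readings can be background. The zinc finger factor Klf4 read 5.36 and 5.56 log2 units in MN1, against 10.79 and 9.85 in Gr1Mac (limma adjusted p = 0.00117). Socs3, an inhibitor of cytokine receptor signalling, read 5.63 and 5.54 in MN1, against 8.26 and 10.21 in Gr1Mac (adjusted p = 0.0424). The difference of the antiproliferative gene Btg2 was -2.15 log2 units (0.00207). The riser was Myc, by 4.39 ± 0.31 log2 units (SE; adjusted p = 0.00116). In MN1VP16 minus MN1, 5 of 32 were called higher (Ier5, Klf2, Klf4, Rgs2 and Id2; 1.15% of all genes) and Myc lower, with 9.22 and 8.86 log2 units in MN1VP16, against 11.17 and 10.91 in MN1 (adjusted p = 0.0334). Klf4 read 10.93 and 10.34 in MN1VP16, above its MN1 readings under the guide (adjusted p = 0.00644), and Klf2 was higher by 3.28 log2 units (0.0426). In MN1VP16 minus Gr1Mac, 1 of 32 was called lower, Gadd45g, and 1 higher, Myc, against 2.11% and 3.66% of all genes.

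The upstream signalling genes were called both ways in MN1 minus Gr1Mac, where 29.3% of all genes were called, and the other phosphatases lower for 1 gene. Among 9 measured SRF, ternary complex and CREB factors, 2 were called lower in MN1 than in Gr1Mac, Elk1 by -0.81 and the CREB coactivator Crtc2 by -0.78 log2 units, and 1 higher, the cyclic AMP response modulator Crem, by 0.84. Crem was the gene of this list called in MN1VP16 minus MN1 (1 of 9, against 3.85% of all genes), by -1.51 log2 units (limma adjusted p = 0.0241). Its MN1VP16 readings of 5.47 and 5.84 can be background. Srf itself read 8.40 and 8.87 log2 units in MN1VP16, 8.13 and 7.83 in MN1, and 8.93 and 8.53 in Gr1Mac. MN1 minus Gr1Mac for Srf was -0.75 ± 0.24 (SE; limma adjusted p = 0.0659). In the MAP kinase cascade, 4 of 8 measured genes were called lower in MN1, among them Braf by -1.47 and the kinase Map2k1 by -1.38 log2 units, and 1 higher, Mapk8, by 0.77. Of 9 other MAP kinase phosphatases, 1 was called, Dusp6, which acts on ERK kinases, with a difference of -3.16 log2 units (limma adjusted p = 0.0114). Dusp6 read 6.76 and 5.16 in MN1, against 8.60 and 9.65 in Gr1Mac, and the reading of 5.16 can be background. Dusp1 and Dusp6 were thus the phosphatases called in this comparison. In the comparisons with MN1VP16, 0 of the 9 were called, where 5.77% of all genes were called against Gr1Mac and 3.85% against MN1.

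The lists around Zfp36 and the Egr and Nr4a proteins differed in their calls, against 12.0% lower and 17.3% higher of all genes in MN1 minus Gr1Mac. In the Zfp36 family and its decay partners, 0 of 7 measured genes were called lower in MN1 than in Gr1Mac and 2 higher, Khsrp by 0.72 and Elavl1 by 0.59 log2 units. Of 12 mRNAs with AU-rich elements, the kind that Zfp36 binds, 5 were called lower in MN1 and 1 higher (median -1.34 log2 units). The difference was -1.99 log2 units for Tnf (limma adjusted p = 0.00595) and -3.84 for Il1b (0.0108). Il6 read 6.68 and 7.92 log2 units in MN1, against 3.94 and 3.57 in Gr1Mac, where it can be background (adjusted p = 0.00504). The most negative differences were those of Ptgs2, with 3.39 and 3.61 in MN1, against 8.91 and 9.58 in Gr1Mac, and of Cxcl2, with 6.07 and 5.46 in MN1, against 10.90 and 10.49 in Gr1Mac; their MN1 means lay under the guide. Of Egr4 and the Egr corepressors Nab1 and Nab2, limma called 0 of 3 in each of the 3 comparisons. Nab2 read 7.44 and 5.60 on MN1VP16 arrays 1 and 2, 6.79 and 6.41 in MN1, and 5.69 and 6.23 in Gr1Mac. The readings of 5.60 and 5.69 lay under the guide. A link of Nab2 to the Egr genes was not tested. Of 6 measured partners of the Nr4a receptors, the coactivators Ncoa1 and Ncoa3 were called lower in MN1, by -2.10 and -1.05 log2 units, and 0 higher.

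The gap between the MN1VP16 arrays extended to these lists unevenly. At least 2-fold higher on array 2 than on array 1 were 5 of 10 AP-1 factors and 10 of 32 other immediate early genes, against 1.80% of all genes. So were 5 of 12 mRNAs with AU-rich elements, 2 of 10 heat shock genes (Hspa1a and Hspa1b) and 2 of 9 MAP kinase phosphatases (Dusp2 and Dusp5). In the SRF, ternary complex and CREB list it was 0 of 9, and in the MAP kinase cascade 0 of 8. At least 2-fold lower on array 2 was 1 of the 12 mRNAs with AU-rich elements, Il6, under the guide on both arrays. The same held for 1 of 7 genes of the Zfp36 family and decay list (Zfp36l1) and 1 of 3 Egr partners (Nab2), against 3.17% of all genes. Cxcl2 read 7.36 log2 units on array 1 and 11.27 on array 2, and the heat shock gene Hspa1b 6.61 and 11.39. Hspa1b also differed between the Gr1Mac arrays, with 7.59 and 9.73.

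The genes nearest to the members' average course over the 6 arrays, by root mean square distance of centred log2 values, were Mag (0.13), Oasl2 (0.13), Irgm2 (0.15), Cmpk2 (0.18), Csrnp1 (0.21), Oas2 (0.21), Nfkbia (0.23) and Adgrg3 (0.24). Pearson's r with the average over the 6 arrays, which share the libraries, lay between 0.96 for Adgrg3 and 0.99 for Mag. Csrnp1 and Nfkbia are themselves early response genes, Nfkbia encoding the inhibitor that NF-kappaB induces. Oasl2, Irgm2, Cmpk2 and Oas2 are interferon-induced genes. Among the members themselves, Dusp1, Ier3 and Ier2 had an r of 0.97 with the average and Egr3 of -0.55.

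Markers of cell types also differed between the arrays. Of 8 measured monocyte and macrophage markers, 7 were called lower in MN1 than in Gr1Mac, against 12.0% of all genes. Of the same 8 markers, 5 were called higher in MN1VP16 than in MN1, against 1.15% of all genes. Their mean level was 11.41 and 10.39 log2 units on MN1VP16 arrays 1 and 2, 8.34 and 8.18 in MN1, and 11.39 and 10.62 in Gr1Mac. Of 10 measured neutrophil markers, 7 were called lower in MN1 than in Gr1Mac and 0 were called between MN1VP16 and MN1; their mean level was 12.79 and 12.97 in MN1VP16, 12.52 and 11.75 in MN1, and 13.81 and 14.01 in Gr1Mac. The neutrophil gene S100a8 read 15.16 and 15.08 in MN1VP16, 14.98 and 14.60 in MN1, and 15.07 and 15.11 in Gr1Mac, so this granulocyte mRNA was bright on all arrays. Klf4 is also counted among the monocyte markers and Il1b among the neutrophil markers.

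Of 9 stem and progenitor markers, 9 were called higher in MN1 than in Gr1Mac, with mean levels of 9.68 and 9.19 log2 units in MN1VP16, 10.93 and 11.07 in MN1, and 6.43 and 6.41 in Gr1Mac. Of 8 erythroid markers, 6 were called higher in MN1 than in Gr1Mac, and of 5 mast cell and basophil markers 4, against 17.3% of all genes. The mean levels of monocyte and of neutrophil markers were lowest on the MN1 arrays, as were Dusp1, Zfp36, Nr4a1 and Ier2. Between MN1VP16 arrays 1 and 2, the mean was lower on array 2 for monocyte and for stem and progenitor markers. It also fell from 10.46 to 9.13 log2 units for mast cell and basophil markers. The fall was from 7.37 to 6.11 for megakaryocyte and from 9.28 to 8.34 for erythroid markers. Markers within a list did not all fall. Of 9 stem and progenitor markers, 4 were at least 2-fold lower on array 2 and 2 at least 2-fold higher, Myb and Hoxa9. Of 5 mast cell and basophil markers, 3 were at least 2-fold lower and 1 at least 2-fold higher, Mcpt8. Gata2, among those lower, counts in both lists. Neutrophil markers were higher on array 2 by less than 0.2 log2 units, and B cell, T and NK cell and stromal means were higher there too. In MN1 minus Gr1Mac, 12.0% of all genes were called lower and 17.3% higher. There, 1 of 6 B cell markers and 1 of 5 T and NK cell markers were called lower. Of the megakaryocyte markers 2 of 6 were called higher, and of the stromal markers 0 of 7 were called. The part of cell composition in the differences of the immediate early genes was not tested.

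**Figure D5:**
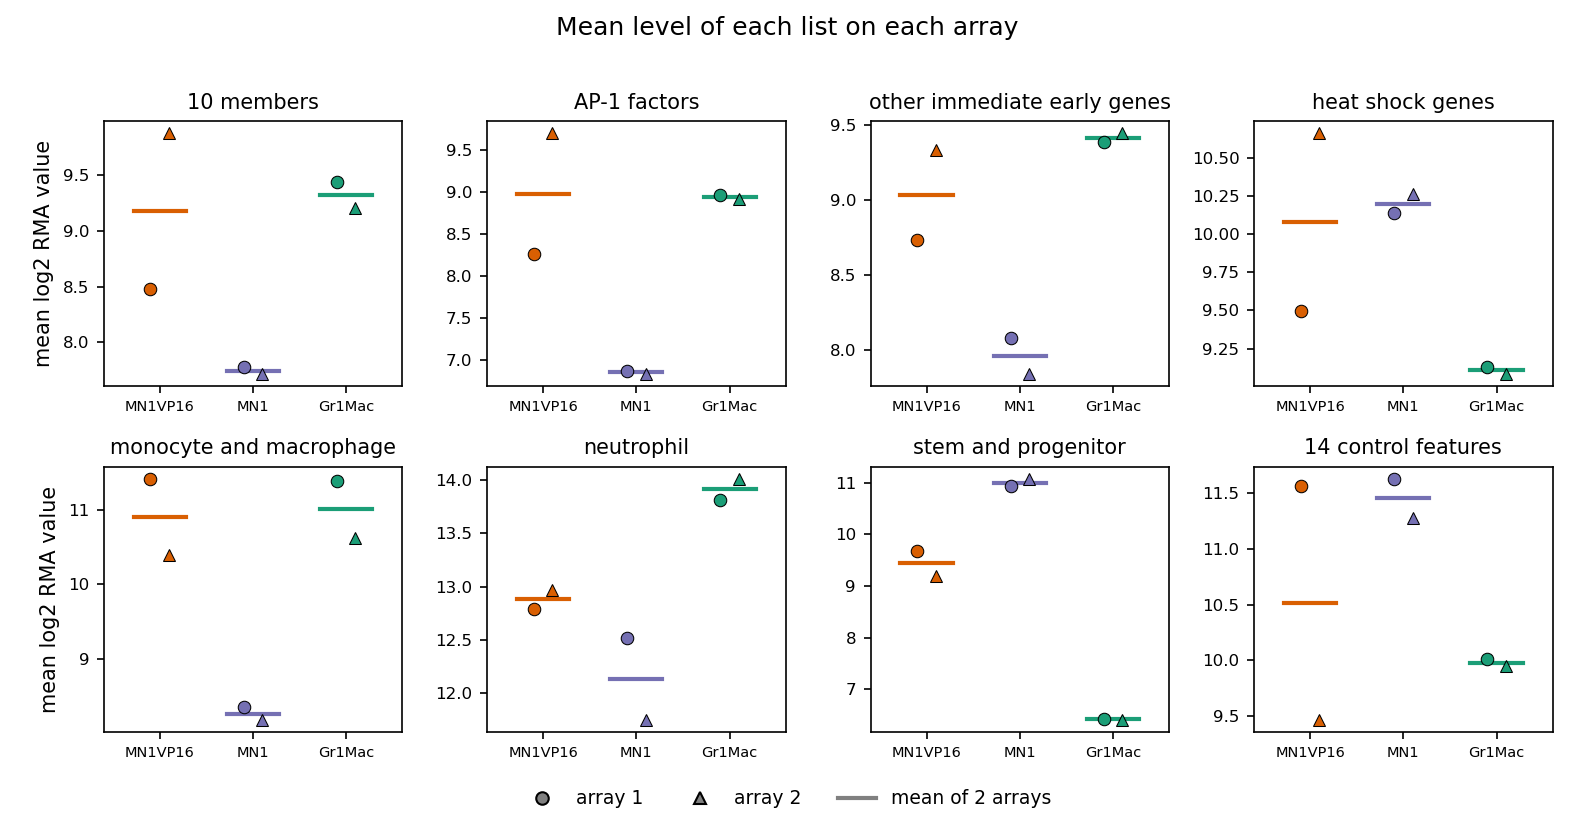
Mean log2 RMA value (vertical axes, which differ between panels) of the 10 immediate early genes, of 6 gene lists and of the 14 control features on each array of the MN1VP16, MN1 and Gr1Mac groups; circles are array 1, triangles array 2, bars the mean of 2 arrays. The means of the members, 8.48 and 9.87 in MN1VP16, 7.78 and 7.72 in MN1, and 9.43 and 9.20 in Gr1Mac, are higher on MN1VP16 array 2 than on array 1, as are the AP-1 and heat shock genes, while the monocyte markers and the control features are lower there. Of the 10 heat shock genes, 2 were at least 2-fold higher on array 2, Hspa1a and Hspa1b, and the median gap of that list was 0.39 log2 units.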

How the data were processed

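RNA of 6 samples was extracted with TRIZOL, labelled with a 3' IVT kit and hybridised to Affymetrix mouse arrays, per the labels' protocols. The deposited table holds log2 values that the authors computed with RMA, per the submitters' processing notes, with no version or genome build given in the sources used here. As a method, RMA subtracts background, quantile-normalises arrays, summarises the probes of a set and compresses differences of dim genes. The number of arrays limits the precision.

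Of 45101 lines, 64 were control features and 34945 of the other probe sets had 1 gene symbol in GEO's platform annotation; 932 had several and 9160 none, and these were left out. The probe set with the highest mean represented a gene. Limma 3.58.1 in R 4.3.3 was fitted to all 6 arrays with group as the only term (3 residual degrees of freedom, 3.03 from the prior), with p-values adjusted over 18193 genes by Benjamini-Hochberg and calls at 0.05; it was tested on simulated data. Promoters came from RefSeq (GRCm38.p6). Genes named were the 10 members, the 2 called genes with the largest difference in each direction of a list, 8 preset genes and the 8 nearest genes; others were named after their values were seen. Members, the 10 pathway lists (106 of 117 genes measured) and the 9 marker lists were chosen with earlier results of these data known. No exact permutation test over 2 arrays against 2 can pass 0.05. Alternatives left out arrays, changed the probe set rule, the filter on dim genes, the arrays fitted and the variance prior, and added blocks.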

Additional observations from a re-analysis of the deposited data

How the results depend on the processing

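The number of members called in MN1 minus Gr1Mac was 4; leaving out 1 array at a time gave 2 to 5, and the sex pattern as a block gave 2. With the control features as a block it was 3, of which Egr1 (2.97 log2 units, adjusted p = 0.0307) and Egr2 (2.35, 0.0466, mostly from readings that can be background) had turned higher, and with the median over probe sets Nr4a2 turned to 1.03 (0.0491). In MN1VP16 minus Gr1Mac 0 were called; leaving out 1 array gave 0 to 2 and the control features as a block 2 (Egr1 and Egr2, higher). In MN1VP16 minus MN1 1 was called; leaving out 1 array gave 0 to 6, the sex pattern as a block 0, the control features as a block 0, the filter on the dimmest 40% of genes 3 and the variance trend 3. Where an array is left out, the lone array is assumed to vary like the other groups. Some blocks repeat such a fit. The sex pattern as a block equals leaving out Gr1Mac array 2 in MN1 minus Gr1Mac. In MN1VP16 minus Gr1Mac it equals leaving out Gr1Mac array 1. The control features as a block equal leaving out MN1VP16 array 1 in MN1VP16 minus Gr1Mac, and MN1VP16 array 2 in MN1VP16 minus MN1. With the sex pattern as a block, 0 of all 18193 genes were called in MN1VP16 minus MN1. The replicate numbers did not pair the arrays, since their deviations from the group means correlated between -0.05 and 0.08; the replicate block gave 4, 0 and 1 members called in the 3 comparisons, in the order used above. Over all genes, the alternatives gave 1486 to 5320 calls in MN1 minus Gr1Mac against 5334, 49 to 1243 in MN1VP16 minus Gr1Mac against 1050, and 0 to 775 in MN1VP16 minus MN1 against 701. The lowest counts came with the control features as a block, without Gr1Mac array 2 and with the sex pattern as a block; the cause was not tested. Ier3 and Zfp36 have only probe sets of the _a_at kind and gave no value without those. Signals near 5.84 log2 units or below limit Egr2 and parts of Egr3, Nr4a2 and Nr4a3.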

Other observations

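The genes with a larger gap between the MN1VP16 arrays than Egr1 included some of other kinds, named after their values were seen. Il22ra2, a soluble receptor that binds interleukin 22, read 5.77 and 12.09 log2 units on MN1VP16 arrays 1 and 2, 7.58 and 6.20 in MN1, and 5.93 and 6.49 in Gr1Mac. The plasma cell genes Jchain, which joins antibody units, and Igha, the constant part of immunoglobulin A, were higher on MN1VP16 array 2 too. Jchain read 5.92 and 10.47 in MN1VP16, 5.10 and 4.45 in MN1, and 9.12 and 6.74 in Gr1Mac. Igha read 8.35 and 12.60 in MN1VP16, 5.65 and 5.72 in MN1, and 11.34 and 9.22 in Gr1Mac.

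Nkg7, a granule protein of cytotoxic lymphocytes, read 9.36 and 12.05 log2 units on MN1VP16 arrays 1 and 2 and between 8.82 and 9.82 on the other 4 arrays, while Cd3e, a T cell receptor chain, read 6.55 and 6.78 on the MN1VP16 arrays. Heat shock genes took different courses. The chaperone genes Hspd1, Hspe1, Hsp90aa1, Hspa8 and Hsph1 were called higher in MN1 than in Gr1Mac (5 of 10, against 17.3% of all genes). The difference of Hspd1 was 2.83 log2 units (limma adjusted p = 0.00136). Hspd1 was called lower in MN1VP16 than in MN1, by -1.23 (limma adjusted p = 0.0481), 1 of 10 against 2.70% of all genes. The stress-inducible Hspa1a read 5.55 and 9.97 in MN1VP16, 4.93 and 5.58 in MN1, and 6.54 and 8.33 in Gr1Mac, and was not called.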
